A study of Caenorhabditis elegans with 6 samples.

Results

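Membrane trafficking moves proteins between the cell surface, endosomes and lysosomes. Autophagy encloses cytoplasm in membrane and delivers it to the lysosome for breakdown. The 5 genes vps-4, snx-6, aps-3, itsn-1 and epg-3 of Caenorhabditis elegans act in these routes, in endosome sorting, adaptor complexes, endocytosis and autophagy. They were taken by name from the table of uniquely annotated significant read clusters of a CLIP experiment on ADR-1. Every row that named one of them was kept, which gave 10 of the 636 clusters of the table and 5 of its 363 gene identifiers. The longer list of 736 reproducible clusters named these genes in the same 10 clusters and in no other.

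ADR-1 is a double-stranded RNA binding protein of the ADAR family that has no deaminase activity of its own and affects where its partner ADR-2 edits adenosines. CLIP uses ultraviolet light to link proteins to the RNA they touch, shortens the RNA with RNase and sequences the fragments that come down with the protein of interest. A read cluster is a stretch of a transcript where the reads pile up. The CLIP group held 3 libraries of RNA pulled down with anti-FLAG beads, and the input group held 3 libraries from 2% of the same lysates taken before the pulldown. Both groups came from whole animals of mixed stages of strain HAH59, which carries 3xFLAG-tagged ADR-1, grown on Escherichia coli OP50 at 20 °C and crosslinked at 3 J/cm2. The CLIP material alone was ligated on the beads so that paired RNA strands could be joined. No library of an untagged strain was among the 6, so RNA in contact with ADR-1 and RNA held by the beads cannot be told apart, and in whole animals more cells with a transcript and more of it per cell cannot be told apart.

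In the endosome pathway, cargo is taken up in coated vesicles, with scaffold proteins such as intersectin (itsn-1) at the coated pit. Adaptor complexes pick cargo for each route, and AP-3, whose small sigma subunit is the product of aps-3, sends it to lysosomes and related organelles. Sorting nexins such as SNX-6 help to return cargo from endosomes, and the AAA ATPase VPS-4 takes apart the ESCRT-III filaments that bud vesicles into the endosome. EPG-3, a membrane protein of the VMP1 family, acts in the formation of autophagosomes and was found through its role in clearing P granule proteins from somatic cells of the worm embryo. None of these roles was measured here. The data count RNA fragments of the 5 genes.

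The library totals, recovered from the deposited test statistics, were 5776210, 5779280 and 5778034 reads for CLIP replicates 1, 2 and 3, and 4158614, 2477929 and 4250225 for the inputs. That of CLIP replicate 2 was fixed only to between 5756209 and 5802443. The CLIP totals are nearly equal, so they may not be the depth each library was sequenced to, and every RPM and scaled ratio here is relative to these totals. The 10 clusters held 2503, 505 and 1603 CLIP reads, or 433, 87.4 and 277 RPM (reads per 1000000 of the library total), against 24, 25 and 30 input reads, or 5.77, 10.1 and 7.06 RPM. They took 1.93% (95% Wilson interval 1.86 to 2.01), 1.81% (1.66 to 1.97) and 2.01% (1.92 to 2.11) of the CLIP reads of all 636 clusters, against 0.444% (0.299 to 0.660), 1.34% (0.908 to 1.97) and 0.539% (0.378 to 0.768) of their input reads. The input reads of all 636 numbered 5406, 1869 and 5566, while the median cluster had 1 in each replicate. The input shares thus depend mostly on the clusters with more input reads. Replicate 2 of CLIP was the lowest of the CLIP libraries at each of the 10 clusters. The same library stood low over the whole table, where its median cluster had 17 reads, against 74 and 43 in replicates 1 and 3. Input counts were low throughout, from 1 to 10 reads per cluster and library, so the input sets the precision of each ratio. Intervals cover counting error only.

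Of the 10 clusters, 8 lay in a 3' UTR, 1 lay in an intron and 1 was listed as spanning 2 locations. Among all 636 clusters of the table, 431 lay in a 3' UTR and 97 in an intron. aps-3 carried 4 clusters, epg-3 carried 3, and vps-4, snx-6 and itsn-1 carried 1 each. Arrays of this size were found in a minority of the protein-coding genes with a cluster. Of 290 such genes, 57 had at least 3 clusters and 35 had at least 4. Clusters of a gene are numbered below from its 5' to its 3' end.

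The RPM of CLIP exceeded that of the input without overlap between the libraries at all 10 clusters, as they did at 87.9% of the 636. All 10 also had an adjusted p under 0.05 and a log2 fold above 0 in edgeR's quasi-likelihood test of CLIP against input. So did 99.0% of the 389 uniquely annotated clusters tested. The 10 passed the filter on low counts through their CLIP libraries, and the table had been selected for enrichment on the same 6 libraries, so these counts are a description. A deposited p-value under 0.05 in all 3 replicates is the stricter mark, which 9 of the 10 clusters reached, against 46.1% of all 636 in the authors' deposited table. The member cluster without this mark was that of itsn-1. Among the 431 clusters in 3' UTRs the share was 53.4%. The median member cluster also had more CLIP reads, 203, 44.5 and 124 in replicates 1, 2 and 3, against 74, 17 and 43 over all 636. Of the 10 clusters, aps-3 held 4 and epg-3 held 3. Whether the 9 of 10 followed from read number was not tested.

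**Figure D1:**
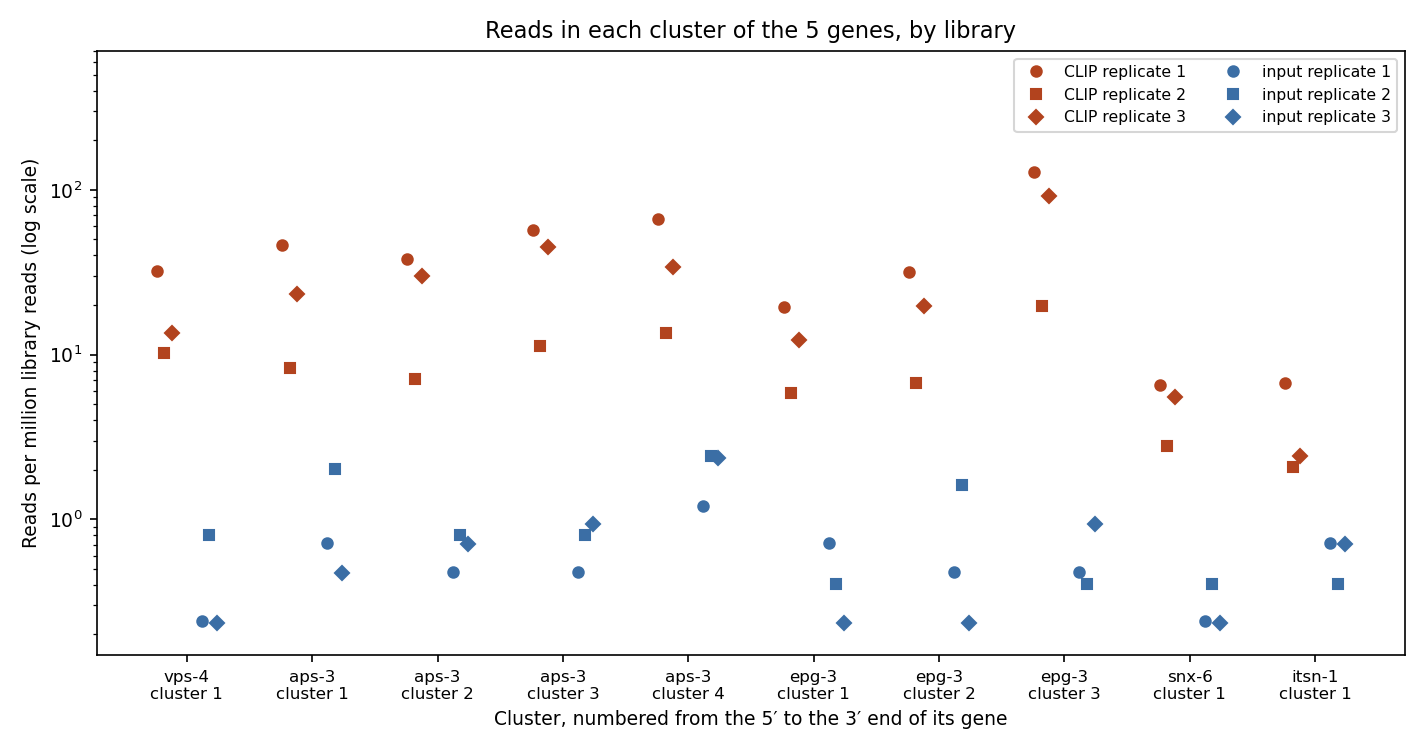
RPM (log scale) in each of the 10 clusters, with the 3 CLIP libraries left of the 3 input libraries and a symbol for each replicate. Every CLIP point lies above every input point of its cluster, epg-3 cluster 3 reaches 129, 19.6 and 91.7 in CLIP, and snx-6 and itsn-1 lie lowest.

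The gene vps-4 (WBGene00021334), which encodes the ATPase of ESCRT-III disassembly, had its cluster in the 3' UTR on chromosome I, 1053941 to 1054056, minus strand, 47 bases from the 3' end of the RefSeq gene. It held 187, 59 and 78 reads in CLIP replicates 1, 2 and 3, against 1, 2 and 1 in the inputs. The library-scaled log2 ratio, that is the log2 of CLIP over input reads after division by the library totals, was 7.07, 3.66 and 5.84, with a mean of 5.53 ± 1.73 (SD, n = 3). The cluster was strongly represented in all 3 CLIP libraries while no input had more than 2 reads. Its edgeR log2 fold was 5.49 ± 1.18 (SE), with an adjusted p of 8.51e-06, and the pooled fold of 50.9 had an exact 95% counting interval of 19.7 to 188. Under TMM scaling, which centres the selected clusters near 0, the log2 fold was 1.09 and the call was lost, at an edgeR adjusted p of 0.273. The mean ratio ranked 68 among the 636 clusters and 64 among the 431 in 3' UTRs.

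Of the endosome sorting genes, snx-6 (WBGene00013354), a sorting nexin gene, differed from the others in location. Its cluster lay in an intron on chromosome V, 17978454 to 17978588, minus strand, 10191 bases upstream of the 3' end of a gene of 11820 bases in RefSeq. CLIP replicates 1, 2 and 3 held 38, 16 and 32 reads, against 1 in each input. The log2 ratios of 4.77, 2.78 and 4.56 gave a mean of 4.04 ± 1.09 (SD, n = 3). This was the only 1 of the 10 clusters with an input count of 1 in every input, a value that may stand for 0 because no deposited count was 0. Such inputs were common in the table, at 241 of all 636 clusters and 70 of the 97 intron clusters. The edgeR log2 fold of the snx-6 cluster was 4.03 ± 0.78 (SE), with an adjusted p of 3.62e-06. It fell below 0 under TMM scaling, at -0.36 with an edgeR adjusted p of 0.777. With input counts of 1 taken as 0 the fitted log2 fold was 7.55, which is no bound. Among the 97 intron clusters of the table the mean ratio ranked 7, and 5 of those 97 had a deposited p under 0.05 in all 3 replicates. snx-6 was among these 5, with deposited p-values of 2.49e-08, 0.0320 and 3.94e-07 in the authors' deposited table.

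The 4 clusters of aps-3 (WBGene00000165), the AP-3 sigma subunit gene, all lay in the 3' UTR on the minus strand of chromosome I. They spanned positions 1154574 to 1155339, or 765 of the 1507 bases of the RefSeq gene, and covered 59.9% of that span. From the 5' end, cluster 1 lay at 1155250 to 1155339, cluster 2 at 1155053 to 1155174, cluster 3 at 1154733 to 1154882 and cluster 4 at 1154574 to 1154673. The gaps between them were 76, 171 and 60 bases in this order, and cluster 4 ended 60 bases from the 3' end of the gene.

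Cluster 1 of aps-3 held 267, 48 and 134 CLIP reads against 3, 5 and 2 input reads, and cluster 2 held 219, 41 and 174 against 2, 2 and 3. Cluster 3 held 330, 65 and 259 CLIP reads against 2, 2 and 4 input reads. Cluster 4 held 385, 78 and 197 CLIP reads against 5, 6 and 10 input reads. The most reads per base in CLIP thus fell on cluster 4 in each replicate, with 389, 78.8 and 199 per 100 bases. The most input reads of the array also fell on cluster 4 in each replicate, so its ratio was the lowest of the array on average.

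The library-scaled log2 ratio of aps-3 averaged 4.56 ± 2.19 at cluster 1, 4.95 ± 1.63 at cluster 2, 5.42 ± 1.55 at cluster 3 and 4.04 ± 1.66 at cluster 4 (SD, n = 3). Within replicates, cluster 3 exceeded cluster 4 by 1.38 ± 0.31 and cluster 2 by 0.47 ± 0.27, and cluster 2 exceeded cluster 4 by 0.91 ± 0.57, with the same sign in 3 of 3 replicates. The other 3 pairs, all with cluster 1, differed by less than their spread. The smallest two-sided p that an exact sign-flip test allows with 3 replicates is 0.25, so that test cannot reach 0.05 for any pair of clusters. The edgeR log2 folds were 4.65, 5.20, 5.62 and 4.25 for clusters 1 to 4, with adjusted p-values from 7.04e-06 at cluster 3 to 0.000137 at cluster 4, and under TMM scaling cluster 4 fell below 0, at -0.40. None of the 4 was called under that scaling, where clusters 1, 2 and 3 had log2 folds of 0.07, 0.59 and 1.00 and edgeR adjusted p-values of 0.944, 0.419 and 0.165. Summed over the array, the CLIP libraries held 1201, 232 and 764 reads of aps-3 and the inputs 12, 15 and 19, with a mean log2 ratio of 4.60 ± 1.74 (SD, n = 3).

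The single cluster of itsn-1 (WBGene00006405), the intersectin gene of endocytosis, lay in the 3' UTR on chromosome IV, 17126041 to 17126104, plus strand, 165 bases from the 3' end of the RefSeq gene. At 63 bases it was the shortest of the 10. It held 39, 12 and 14 CLIP reads against 3, 1 and 3 input reads. The log2 ratios of 3.23, 2.36 and 1.78 gave a mean of 2.46 ± 0.73 (SD, n = 3), the lowest of the 10 and rank 557 of 636. Its edgeR log2 fold was 2.52 ± 0.64 (SE) with an adjusted p of 0.000128. Under TMM scaling it turned to -2.08, called lower in CLIP at an edgeR adjusted p of 0.0235. That scaling called 72 of all 463 clusters tested lower and 38 higher. In the authors' deposited table the p-values of the itsn-1 cluster were 8.65e-07, 0.126 and 0.0483. Without CLIP replicate 1 or CLIP replicate 3 it did not pass the filter on low counts, and without input replicate 2 its edgeR adjusted p was 0.0486.

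The autophagy gene epg-3 (WBGene00012559) carried 3 clusters on the plus strand of chromosome III, at 12940674 to 12940747, 12940936 to 12941021 and 12941837 to 12941961. Clusters 2 and 3 were listed in the 3' UTR. Cluster 1 was listed as spanning 2 locations, although the reproducible list gives 100% of it in a 3' UTR. The gap between clusters 1 and 2 was 189 bases and that between clusters 2 and 3 was 816, and cluster 3 ended 327 bases from the 3' end of the gene. The 3 clusters covered 21.9% of their span of 1287 bases, a sparser array than that of aps-3.

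Cluster 3 of epg-3 held 743, 113 and 530 CLIP reads against 2, 1 and 4 input reads, cluster 2 held 183, 39 and 114 against 2, 4 and 1, and cluster 1 held 112, 34 and 71 against 3, 1 and 1. Most CLIP reads of the gene's clusters thus fell on cluster 3, with 71.6% (95% Wilson interval 68.8 to 74.2), 60.8% (53.6 to 67.5) and 74.1% (70.8 to 77.2) in replicates 1, 2 and 3. In the inputs, its share was 2 of 7, 1 of 6 and 4 of 6 reads, too few to place. Cluster 3 was the highest of the 10 in every replicate, with log2 ratios of 8.06, 5.60 and 6.61 and rank 10 among all 636.

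The mean log2 ratio of epg-3 was 6.76 ± 1.24 at cluster 3, 4.83 ± 2.40 at cluster 2 and 4.77 ± 0.92 at cluster 1 (SD, n = 3). Within replicates cluster 3 exceeded cluster 2 by 1.92 ± 1.66 and cluster 1 by 1.98 ± 1.23, with the same sign in 3 of 3 replicates. Clusters 2 and 1 differed by 0.06 ± 1.64, well within the spread. The edgeR log2 fold of cluster 3 was 6.94 ± 1.28 (SE), with an adjusted p of 3.17e-06, and those of clusters 2 and 1 were 4.72 and 4.70, with adjusted p-values of 4.14e-05 and 2.35e-05. Cluster 3 was the only member cluster also called higher under TMM scaling, at a log2 fold of 2.22 and an edgeR adjusted p of 0.0149. Of all 463 clusters tested, 38 were called higher under that scaling. Clusters 2 and 1 lost their calls there, at 0.23 and 0.19 with edgeR adjusted p-values of 0.826 and 0.970.

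**Figure D2:**
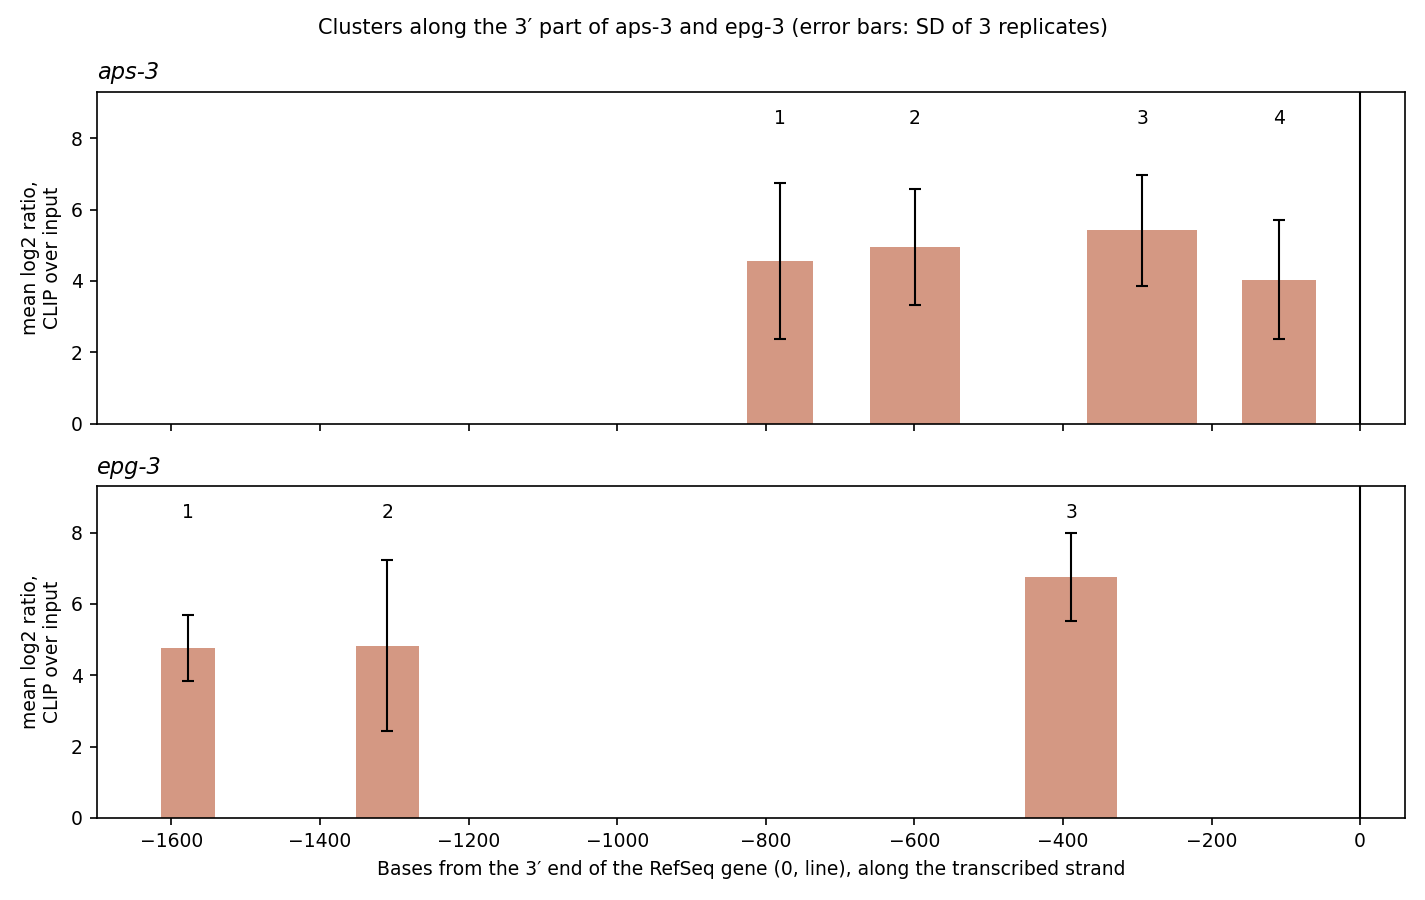
Clusters of aps-3 and epg-3 drawn to scale by their distance in bases from the 3' end of the RefSeq gene, with the height of a box giving the mean library-scaled log2 ratio of CLIP over input and the error bar the SD of 3 replicates. The 4 boxes of aps-3 have means from 4.04 to 5.42, and in epg-3 the box nearest the 3' end reaches 6.76 against 4.83 and 4.77 for the others.

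Across genes, the means ran in the order epg-3 cluster 3 (6.76), vps-4 (5.53), aps-3 clusters 3 and 2 (5.42 and 4.95), epg-3 clusters 2 and 1 (4.83 and 4.77), aps-3 clusters 1 and 4 (4.56 and 4.04), snx-6 (4.04) and itsn-1 (2.46). Of the 9 pairs of neighbours in this order, 6 differed by less than the spread of their difference over replicates. The 3 that exceeded it were epg-3 cluster 3 over vps-4, by 1.23 ± 0.62, aps-3 cluster 3 over its cluster 2, and snx-6 over itsn-1, by 1.58 ± 1.18 (SD, n = 3). The order of most neighbours between the top and the bottom was thus not resolved over 3 replicates.

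Set against the median of all 636 clusters in the same replicate, which was 4.91, 2.10 and 4.28, the members lay above it in 7, 8 and 8 of 10 cases in replicates 1, 2 and 3. The excess over that median was 2.99 ± 0.61 at epg-3 cluster 3, 1.76 ± 0.35 at vps-4 and 1.66 ± 0.35 at aps-3 cluster 3 (SD, n = 3). snx-6 lay close to it, at 0.27 ± 0.41, and itsn-1 below it on average, at -1.31 ± 1.42 (SD, n = 3). This spread was smaller than that of the ratios themselves in the other clusters, but larger for itsn-1 (1.42 against 0.73) and epg-3 cluster 1 (1.03 against 0.92). The replicate with the lowest ratio was replicate 2 in 9 of the 10 clusters and in 94.0% of the 636, and itsn-1 was the exception, lowest in replicate 3.

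**Figure D3:**
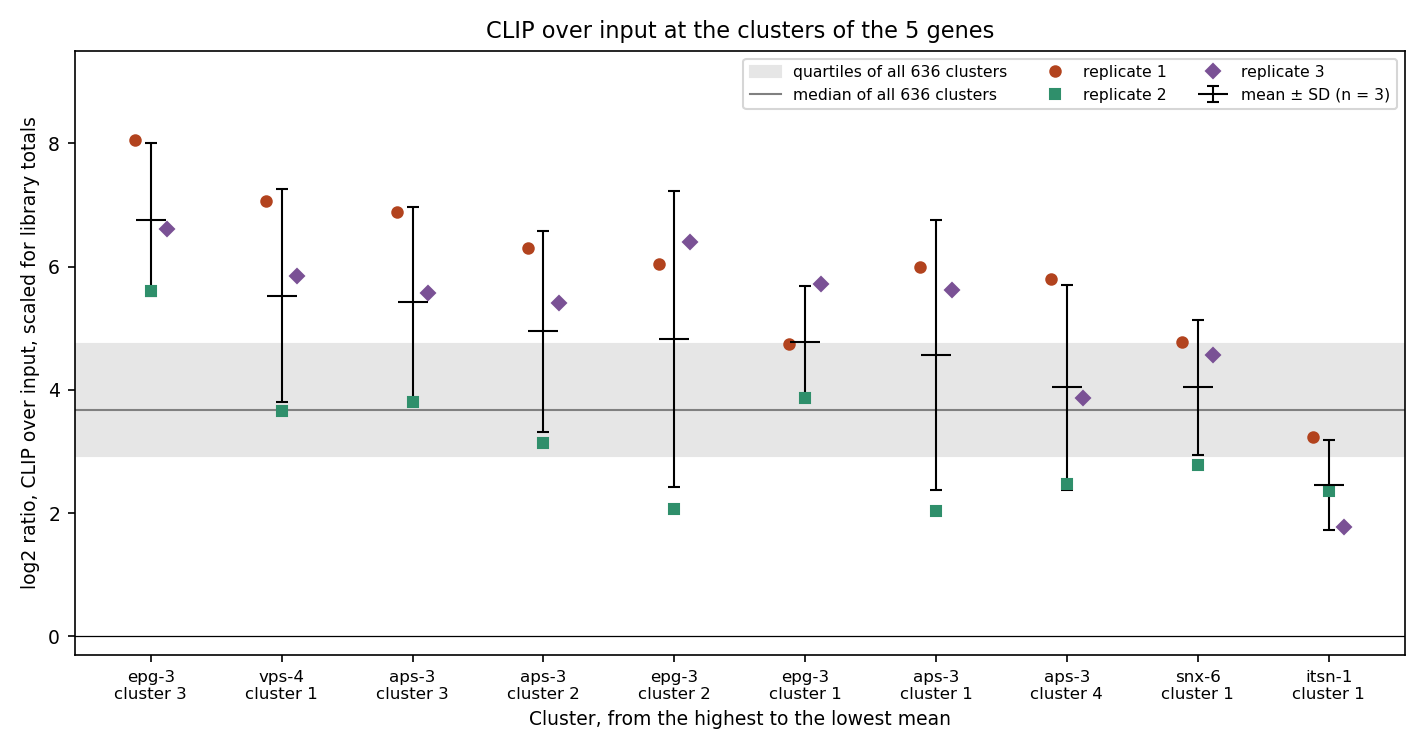
Library-scaled log2 ratio of CLIP over input for the 10 clusters, ordered from the highest to the lowest mean, with a symbol for each replicate, the mean and SD (n = 3) in black, and the median and quartiles of the means of all 636 clusters as a grey line and band. epg-3 cluster 3 stands highest, itsn-1 lies under the band, and replicate 2 is lowest in 9 of the 10.

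All 5 genes lay within the outer 25% at either end of an autosome, as did 65.7% of the 283 autosomal protein-coding genes with a cluster and 44.4% of the 17241 such genes in RefSeq. On a scale from the first to the last RefSeq gene of the chromosome, vps-4 lay at 6.97% and aps-3 at 7.64% of chromosome I, epg-3 at 93.9% of chromosome III, snx-6 at 85.9% of chromosome V and itsn-1 at 97.9% of chromosome IV. Within the outer 10% at either end lay 4 of the 5, compared with 26.5% of those with a cluster and 16% of those in RefSeq. These shares are a description without a test. No other RefSeq gene overlapped any of the 10 clusters, and vps-4 had the nearest cluster of another gene, that of Y34D9A.8 at 3030 bases on the same strand.

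Other genes of the same routes were mostly without a cluster. In 7 lists of 124 genes, 8 had a uniquely annotated cluster, the 5 members and 3 more. By the edgeR test 7 of the 8 were called higher in CLIP and 0 lower. Of the 389 uniquely annotated clusters tested, 99.0% were called higher, so these calls do not set the list genes apart. The gene not called was unc-101, whose stronger cluster was not tested. The list of ESCRT genes gave 2 of 19, vps-4 and vps-32.1, which encodes an ESCRT-III filament subunit. In its 3' UTR cluster the CLIP libraries had 116, 39 and 82 reads and the inputs 3, 4 and 1. The ratio averaged 4.26 ± 1.98 on the log2 scale (SD, n = 3). Its edgeR log2 fold was 4.05, with an adjusted p of 0.000146, and the fold fell below 0 under TMM scaling, at -0.34. Clathrin and adaptor genes gave 2 of 14, aps-3 and unc-101, which encodes a medium subunit of AP-1. The stronger of the 2 clusters of unc-101 by deposited fold had 48, 6 and 15 reads in CLIP and 1, 1 and 2 in the inputs. Its mean log2 ratio was 2.98 ± 1.93 (SD, n = 3), and it did not pass the filter on low counts.

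Retromer and sorting nexin genes gave only snx-6 among 12, endocytosis and endosomal GTPase genes only itsn-1 among 20, and autophagy genes only epg-3 among 29. None of 9 tethering genes of the HOPS and CORVET complexes had a cluster. Among 21 genes of SNAREs and fusion factors, only the syntaxin gene unc-64 had any. The stronger of its 2 clusters had 76, 21 and 64 reads in CLIP and 2, 1 and 1 in the inputs, with a mean log2 ratio of 4.50 ± 1.22 (SD, n = 3) and an edgeR adjusted p of 1.01e-05. The edgeR log2 fold of this unc-64 cluster was 4.56, and 0.06 under TMM scaling. Over all protein-coding genes of RefSeq, 290 of 19983 (1.45%) had a cluster. The 5 members were drawn from genes with a cluster, so the count of 8 list genes cannot be set against that share. Of the 119 list genes other than the members, 3 had a cluster, and no test was made. A gene with few transcripts gives few reads, and transcript levels were not measured here, so a gene without a cluster is not shown to be free of ADR-1.

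The clusters of other genes nearest to those of the 5 genes were found by the distance between ratios over the 3 replicates. Each of the 5 genes was represented only by its cluster of largest deposited fold. These neighbours lay in a 3' UTR in 9 of 10 cases. Of all 636 clusters, 431 lay in a 3' UTR, with a median ratio of 4.17 against 2.72 for the 97 intron clusters. No test was made, so the 9 of 10 does not set the 5 genes apart. Nearest to epg-3 cluster 3 was a cluster of the thioredoxin reductase gene trxr-1 (8.22, 5.25 and 6.86, distance 0.456), followed by the glycosylation gene sqv-6 (distance 0.773). Y111B2A.12 and the TCF gene pop-1 came nearest to vps-4, at distances of 0.246 and 0.395. The Mediator gene mdt-17 and nkb-1 came nearest to aps-3 cluster 3, at 0.188 and 0.252. The intron cluster of snx-6 had its nearest neighbours in the 3' UTR clusters of ttc-7 and Y49E10.21, at 0.240 and 0.306. For itsn-1 they were the actin gene act-4 and C35D10.6, at 0.673 and 0.797. Likeness over 3 replicates that share their libraries is a description only.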

How the data were processed

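The submitters' processing notes name fastp 0.21.0, STAR 2.7.10b and the builds ce11 and WBcel235, and CLIPPER called the clusters, which were annotated with WormBase WS275, per the file headers. The authors' deposited values are raw counts of reads in each cluster, p-values from chi-square or Fisher tests, chi-square scores, and other annotation as percentages of a cluster in a transcript or 3' UTR. Per the file headers the 3 replicates are biological. Both deposited log2 columns were tested on the values: the fold is log2 of CLIP plus 1 over input plus 1, unscaled, in 736 of 736 clusters of each replicate, and the column headed entropy is the log2 ratio scaled for library totals, with nothing added. Coordinates are printed as the tables hold them. The sources used here do not say whether they start at 0 or 1.

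Total reads per library were fitted to the deposited scores (130 of 130, 73 of 76 and 116 of 116 met within 0.005) and tested on simulated scores. The scaled ratio had been written down with 1 added to each count. As the table adds none, none was added, and the form with 1 is an alternative. CLIP and input were compared over all 736 reproducible clusters by edgeR 4.0.16 (glmQLFTest, filterByExpr, Benjamini-Hochberg, library totals as library sizes, no replicate block) in R 4.3.3, tested on simulated data. Its SE is the log2 fold over the square root of F. Alternatives included DESeq2 1.42.0. Same-numbered libraries share a lysate per the labels' protocols, and their deviations correlated at 0.309, 0.0971 and 0.00307. Members and gene lists were chosen with earlier results of these data known. Named were the 5 genes, every list gene with a cluster, and the 2 genes nearest to each member's cluster of largest deposited fold, by Euclidean distance of the scaled ratios. Gene spans are RefSeq's for WBcel235, where all 124 list genes matched by symbol. No genome sequence was used here, so no sequence is printed.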

Additional observations from a re-analysis of the deposited data

How the results depend on the processing

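All 10 member clusters were called higher in CLIP without the filter, with the replicate block, with only the uniquely annotated clusters, with input counts of 1 taken as 0 and with DESeq2. Leaving out 1 library gave 9 to 10 calls, the 9 being without CLIP replicate 1 or 3, where itsn-1 was not tested. TMM scaling and DESeq2 size factors centre these selected clusters near 0 and move the median log2 fold of all clusters by -4.59 and -4.67. Both left 1 member called higher, epg-3 cluster 3, and 1 lower, itsn-1. Of all 463 clusters tested, TMM called 38 higher and 72 lower, and DESeq2 size factors 35 and 73. Such calls were thus not particular to these member clusters. Under TMM and DESeq2 size factors the log2 fold turned to -0.40 and -0.47 at aps-3 cluster 4, to -0.36 and -0.44 at snx-6 and to -2.08 and -2.16 at itsn-1. Over all clusters tested, calls as higher numbered 450 of 463 in the main setting, 715 of 736 without the filter and 716 of 736 with DESeq2. With 1 library left out, they ran from 393 of 426 without CLIP replicate 1 to 679 of 680 without CLIP replicate 2. Without an input library, 727 clusters were tested and 591 to 672 were called higher. The replicate block gave 451 calls and changed no call of a member. The scaled ratio of each of the 10 clusters moved by less than its SD under other added counts (0.5 or 1) or input counts of 1 taken as 0 (with 0.5 added). The same held for the deposited fold, which drops the scaling and also adds 1, so the effect of scaling alone was not tested. Means shifted by -0.95 to -0.19 with 1 added and by -0.28 to 1.02 with input counts of 1 taken as 0. That of snx-6 went from 4.04 to 3.09 and to 5.06 in these forms. The SD includes the low replicate 2, so a shift below it need not be small. The scaled form with 1 added and that with 1 taken as 0 were chosen after seeing the data. Leaving out replicate 2 raised the means by 0.04 to 1.39, most at epg-3 cluster 2, which had 6.22 without it. Input counts of 1 to 10 limit the precision of every ratio.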
